A study of Mus musculus with 7 samples.

Results

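Integrin, collagen, laminin and other matrix genes were followed through an ATAC-seq comparison of mouse pancreatic β cells with and without the chromatin remodelers CHD3 and CHD4. Members were chosen by gene symbol alone: integrins, laminin chains, collagen chains, fibronectin (Fn1), fibrillins, thrombospondins, the ADAMTS and matrix metalloproteinase (MMP) proteases, and the TIMP inhibitors. They account for 317 of the 61288 listed regions and 104 of 24453 gene symbols. A region belongs to the gene whose transcription start site (TSS) is nearest, so a region assigned to a gene need not act on it. Every annotated transcript counts, short ones inside a gene included, so a region nearest a TSS can lie far from the start of the gene. Accessibility is given as CPM, read counts scaled to the size of each library.

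ATAC-seq marks open chromatin, since the Tn5 transposase inserts its adapters only where DNA is within reach. The series holds 4 Control libraries (Chd3+/+;Chd4+/+) and 3 Chd3/4Δβ libraries (Chd3 fl/fl;Chd4 fl/fl), all from Tomato-positive β cells that were sorted from islets of male mice. Every mouse also carried R26 LSL-tdTomato and MIP-CreERT, in which the mouse insulin promoter drives a Cre that tamoxifen activates, and every mouse received tamoxifen when young. Effects of the Cre transgene and of tamoxifen are therefore shared by the groups, and the comparison is about chromatin that opens or closes in β cells without both remodelers.

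CHD3 and CHD4 are ATPases of NuRD, a complex that joins nucleosome remodeling to histone deacetylation and limits the use of regulatory DNA. Integrins are cell surface receptors, each made of an α and a β subunit, that hold cells to laminins, collagens and fibronectin. Laminins and type IV collagen build the basement membrane, fibrillar collagens build the interstitial matrix, and ADAMTS and MMP proteases cut or mature these proteins under the control of TIMPs. In mouse islets the basement membrane that β cells touch is laid down chiefly by the endothelial cells of islet capillaries, and most of these genes are better known from fibroblasts, endothelium, cartilage or leukocytes than from β cells.

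The library sizes behind the CPM ran from 17629713 to 44026681 counts, and Control replicate 4 and Chd3/4Δβ replicates 1 and 2 were the deeper ones, at 38973375 counts or more. The table lists only the 61288 of 109675 tested regions (55.9%) that the authors had already called different between these same groups. A call was an adjusted p under 0.05 and a log2 fold change of at least 1 in either direction, and across all listed regions 57.4% were called, 37% higher and 20.4% lower in Chd3/4Δβ. No listed region was annotated to Chd3 or Chd4, so the deletions were not checked here. All 10 β-cell markers searched were listed, and their 48 regions summed to 1026 to 1253 CPM in Control and to 490, 581 and 838 CPM in Chd3/4Δβ replicates 1, 2 and 3, with 16 lower and 8 higher. Chd3/4Δβ replicate 3 was thus the mutant library closest to Control at these genes.

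Accessibility at member genes was higher in Chd3/4Δβ β cells more often than it was lower. Of the 317 regions, 156 (49.2%) were called higher, 37 (11.7%) lower and 124 neither, beside 37% and 20.4% (57.4% in all) of the listed regions. The median log2 fold change was 0.99 over the members and 0.56 over all listed regions. Gains made up 80.8% of the called members, beside 64.5% of all called regions. When the libraries were rescaled on the listed regions themselves, gains made up 70.5% of called members with TMM factors (134 higher and 56 lower), 63.7% with RLE size factors (121 and 69) and 67.3% with cyclic loess (107 and 52), beside 53.2%, 48.0% and 47.2% of all called regions. These scalings lowered the median of all listed regions by over 0.1, to 0.35, 0.25 and 0.14, and the member median stayed 0.43 to 0.48 above it. At the 156 gains the median CPM was 0.851, 0.678, 0.813 and 0.813 in Control replicates 1 to 4 and 3.43, 3.55 and 3.09 in Chd3/4Δβ replicates 1 to 3, and at the 37 losses it was 2.89, 3.20, 2.58 and 3.35 against 0.840, 0.821 and 1.41. The groups did not overlap at 152 of the gains and at all 37 losses, beside 22183 of 22692 gains and 11507 of 12512 losses over all listed regions. This was fixed in advance at 70 gains and 14 losses, which passed the listing filter through the libraries of 1 group only. Of the members, 76 gains (48.7%) and 6 losses (16.2%) were at least 4-fold, shares close to the 48.4% and 14.1% of all called regions. No overlap was seen at 288 of the 317 members (90.9%), beside 88% of all listed regions. In bulk libraries, more cells with an open region and a more open region in each cell cannot be told apart.

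The calls differed with how open a region was in Control. To be listed, a region needed a CPM above 1 in at least 3 libraries, and 71 members passed through the Chd3/4Δβ libraries alone, so that they had to be higher there; 70 of them were called higher. Another 15 passed through Control libraries alone, and 14 of these were called lower. Among the 180 members that either group alone would have carried past the filter, 60 (33.3%) were higher and 11 (6.11%) lower, beside 23.7% and 11.6% of the 35881 listed regions of that kind. By mean Control level, 89 of 93 members under 1 CPM were higher, as were 95.2% of all listed regions under 1 CPM. Between 1 and 5 CPM, 60 of 143 members (42.0%) were higher and 27 (18.9%) lower, against 28.1% and 33.9% of all listed regions. At 5 CPM and above, 7 of 81 members (8.64%) were higher and 10 (12.3%) lower, close to the 6.63% and 15% of all listed regions. These shares describe regions that were listed for differing and are not a test of the gene group.

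**Figure D1:**
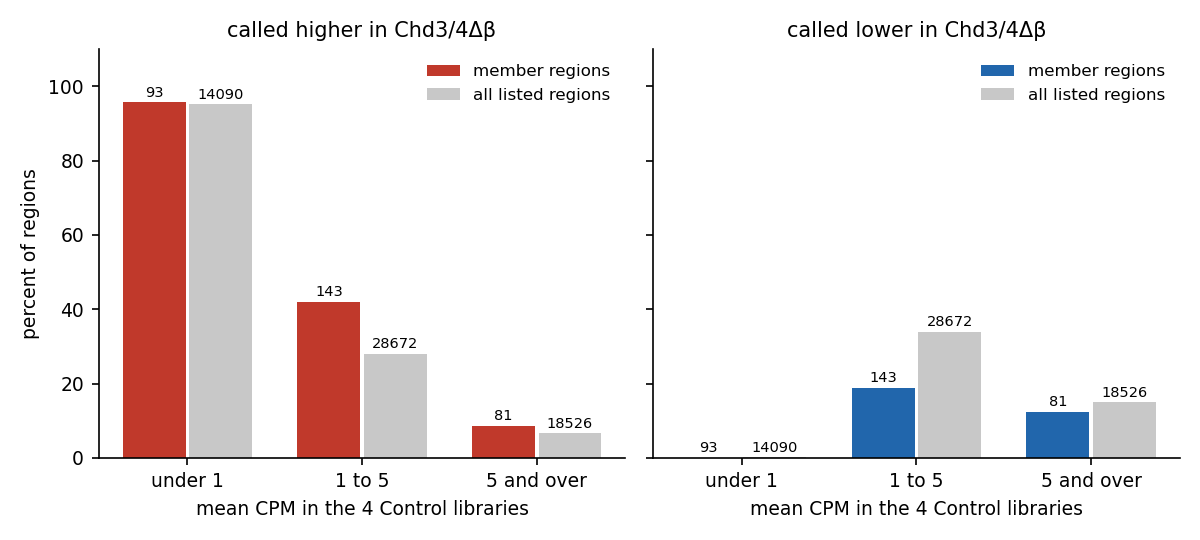
Percent of regions called higher (left) or lower (right) in Chd3/4Δβ, by mean CPM in the 4 Control libraries, for member regions (coloured bars) and all listed regions (grey bars), with the number of regions above each bar. Members and all regions had like shares of gains under 1 CPM, while between 1 and 5 CPM 42.0% of members and 28.1% of all regions were higher.

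Regions of the promoter class showed gains and no loss. Of 31 such regions at 28 genes, 15 were higher and none lower, against 22.1% higher and 8.94% lower among all 6643 listed promoter regions. The median log2 fold change was 1.00 for the members and -0.31 for all listed promoter regions. Member promoter regions were less open in Control, with a median of 4.15 CPM, below that of all listed promoter regions. Gains were less frequent at higher Control levels, and these shares and medians were not matched for level. In the edgeR test 6 of the 31 had a negative log2 fold change and an unadjusted p under 0.05, without reaching the fold limit, and DESeq2 called 12 higher and 1 lower. The class follows every annotated transcript, including short ones that start inside a gene. Only 8 of the 15 gains were centred within 2000 bases of the RefSeq 5′ end of their gene: Col5a3, Adamts15, Timp3, Itgbl1, Adamts10, Col6a2, Col25a1 and Fn1. The other 7, at Thbs3, Col22a1, Col26a1, Col1a2, Col9a2, Mmp9 and Col27a1, were centred 5624 to 116700 bases downstream of it.

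RefSeq gave an upstream window for 4 of the 8 genes with a gain at the gene start. They are shown because they are the DNA that was more open in Chd3/4Δβ: the 250 bases before the RefSeq start, 5′ to 3′ on the strand of the gene, in lower case. Capitals mark CCAAT and GGGCGG on either strand (ATTGG and CCGCCC on the other), 2 motifs common near transcription starts, and neighbouring matches may share bases. The windows are chr9:20815068-20815317 (minus strand, Col5a3), chr10:86300162-86300411 (plus strand, Timp3), chr10:76623405-76623654 (minus strand, Col6a2) and chr3:130180595-130180844 (plus strand, Col25a1), in GRCm38.p6.
Col5a3: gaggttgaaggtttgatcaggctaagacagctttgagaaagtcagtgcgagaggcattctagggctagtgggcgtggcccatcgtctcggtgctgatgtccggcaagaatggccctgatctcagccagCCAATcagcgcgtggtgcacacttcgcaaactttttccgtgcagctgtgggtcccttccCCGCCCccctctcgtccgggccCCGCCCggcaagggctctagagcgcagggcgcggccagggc
Timp3: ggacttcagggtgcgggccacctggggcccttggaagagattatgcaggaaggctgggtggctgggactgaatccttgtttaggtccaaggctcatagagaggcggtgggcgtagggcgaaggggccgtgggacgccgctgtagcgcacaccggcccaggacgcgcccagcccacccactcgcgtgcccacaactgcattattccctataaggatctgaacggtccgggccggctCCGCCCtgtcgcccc
Col6a2: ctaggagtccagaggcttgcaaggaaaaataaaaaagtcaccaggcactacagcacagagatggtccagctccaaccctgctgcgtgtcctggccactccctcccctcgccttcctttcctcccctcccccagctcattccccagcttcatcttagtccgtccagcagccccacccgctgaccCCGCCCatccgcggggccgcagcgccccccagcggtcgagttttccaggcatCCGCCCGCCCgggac
Col25a1: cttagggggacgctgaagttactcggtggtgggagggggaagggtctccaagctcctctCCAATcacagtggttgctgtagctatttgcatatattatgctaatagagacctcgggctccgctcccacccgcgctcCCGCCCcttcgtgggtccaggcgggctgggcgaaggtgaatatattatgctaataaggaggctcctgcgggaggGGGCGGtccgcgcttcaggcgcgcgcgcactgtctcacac

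Each of these 4 windows held GGGCGG, a motif found in 32.7% of all 32851 RefSeq windows of this length, and those of Col5a3 and Col25a1 also held CCAAT, found in 33.8%. None held TATAAA (12.4% of all windows), TAATTA (4.84%), TGAGTCA (4.46%) or TGTTTAC (3.17%), 2 held the loose E-box CANNTG (66.2%) and 1 held GGAATG (12.6%), each searched on both strands. Their median GC content was 63.6%, against 52.4% for all windows. A match is a description of the letters and not a sign of binding.

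The Col5a3 start, which codes for a minor type V collagen chain that regulates fibril assembly, had 2.04, 2.82, 2.15 and 1.98 CPM in Control replicates 1 to 4 and 11.2, 10.4 and 10.1 CPM in Chd3/4Δβ replicates 1 to 3. Every mutant library was above every Control library, with a log2 fold change of 2.24 (SE 0.20, adjusted p = 3.95e-09). An intronic region of Col5a3, 1987 bases from the TSS, went from 3.74, 2.88, 3.06 and 3.13 to 17.8, 13.8 and 15.4 CPM (2.29, SE 0.18).

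Timp3 encodes an inhibitor of MMPs and ADAMTS proteases that stays bound to the matrix. Its start held 1.99, 4.02, 2.63 and 3.23 CPM in Control and 9.52, 9.54 and 7.31 CPM in Chd3/4Δβ (log2 fold change 1.57, SE 0.22). The gene lies within an intron of Syn3 on the other strand, so its regions cannot be given to Timp3 alone. Col6a2, a chain of the beaded filament collagen VI, rose from 4.48, 5.37, 3.68 and 3.56 to 10.2, 10.7 and 8.50 CPM (1.22, SE 0.19). Col25a1, a transmembrane collagen best known from neurons, rose from 10.7, 12.3, 14.7 and 16.5 to 27.6, 30.2 and 29.7 CPM (1.10, SE 0.15). The Fn1 start was the smallest of these gains, from 2.61, 4.45, 4.92 and 6.01 to 8.31, 10.1 and 10.3 CPM (1.06, SE 0.22). The groups did not overlap at any of these starts. The Fn1, Col25a1 and Col6a2 starts were past the fold limit with the main scaling and not with every other scaling, and Fn1 dropped to 0.88 without Control replicate 1, the Control library with the lowest value there.

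At the other starts, Adamts15 rose from 3.23, 4.29, 4.11 and 4.95 to 14.2, 14.3 and 14.9 CPM and Adamts10 from 4.99, 3.91, 3.25 and 4.81 to 12.6, 11.5 and 7.54 CPM. Both encode secreted metalloproteinases, ADAMTS15 one that cuts proteoglycans and ADAMTS10 one linked to fibrillin microfibrils. Itgbl1, which codes for a secreted protein with integrin-like repeats and no integrin subunit, rose from 7.43, 6.40, 7.60 and 7.19 to 17.4, 19.7 and 26.2 CPM. Among the gains at inner transcripts, Col22a1 stood out in its evenness, with 1.99, 2.17, 2.73 and 2.26 CPM in Control and 20.2, 20.4 and 20.8 CPM in Chd3/4Δβ (3.16, SE 0.17, adjusted p = 4.49e-12). Thbs3 had the largest promoter-class change, from 0.340, 0.488, 0.239 and 0.141 to 3.43, 2.98 and 2.08 CPM (3.36, SE 0.38). The remaining inner gains were Col26a1 at 2.74, Col1a2 at 2.11, Col9a2 at 1.94, Mmp9 at 1.70 and Col27a1 at 1.52 on the log2 scale.

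**Figure D2:**
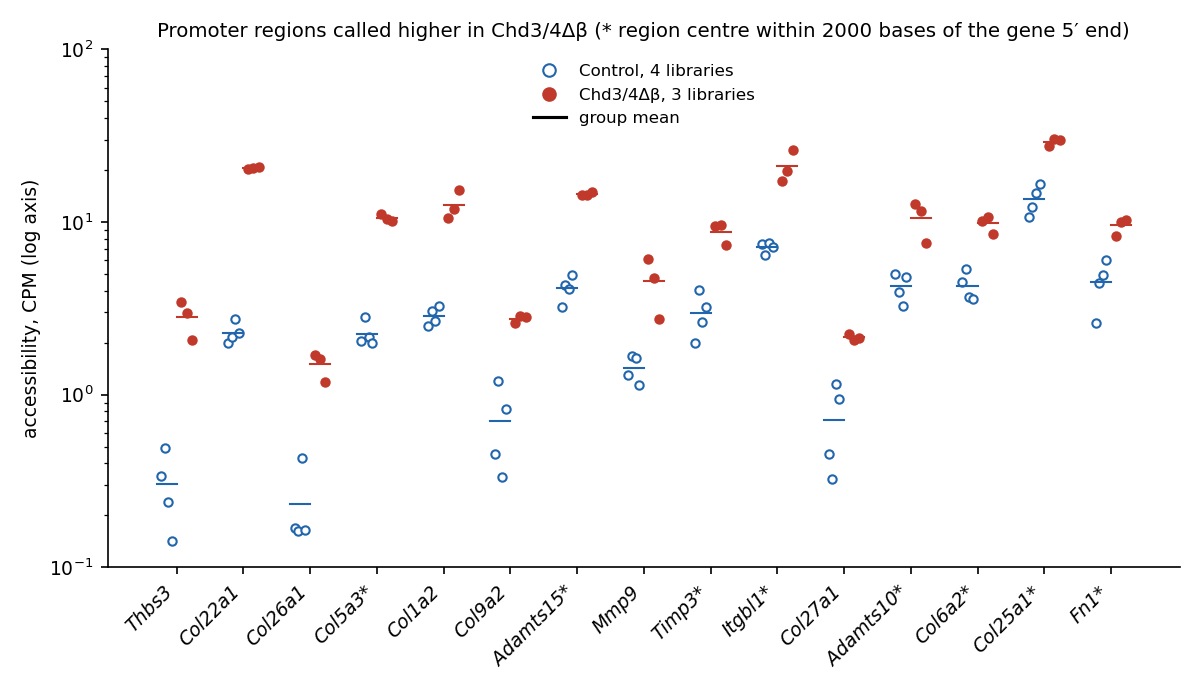
Accessibility in CPM (log axis) in each library at the 15 promoter-class regions called higher in Chd3/4Δβ, with open points for the 4 Control libraries, filled points for the 3 Chd3/4Δβ libraries and lines for the group means. The groups do not overlap at any of the 15, and the asterisk marks the 8 regions centred within 2000 bases of the gene's 5′ end.

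Integrin α subunits, which set ligand choice, had 39 regions at 13 genes. Of these, 17 rose (43.6%), 5 fell (12.8%) and 17 were not called, beside 37% higher and 20.4% lower of all listed regions. With RLE size factors 12 rose and 9 fell, and with cyclic loess 13 and 8. The largest gain lay at Itga9 (position -3906 from the TSS), a receptor for tenascin and other ligands, where Control libraries had 0.170, 0.109, 0.143 and 0.0471 CPM and Chd3/4Δβ libraries 3.43, 3.82 and 3.26 CPM (5.03, SE 0.39). Itga9 also had 2 intronic losses (-1.14 and -1.41) among its 8 regions, so it did not open throughout. An exonic region of Itga7, a laminin receptor of muscle, rose from 0.170, 0.271, 0.143 and 0.141 to 3.52, 3.67 and 3.09 CPM (4.28, SE 0.35). Itga11, a collagen receptor of fibroblasts, rose at 4 of 5 regions and fell at 1, and Itga4 and Itga5, which bind fibronectin, rose at 2 of 3 and at 2 of 2.

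At 4 α subunits that were named whatever their values, receptors for laminin, collagen or vitronectin, the regions nearest the start were under the fold limit. Itga3 had 62.5, 65.7, 60.0 and 62.3 CPM in Control and 52.0, 48.2 and 38.4 CPM in Chd3/4Δβ at its first exon (-0.43, SE 0.11), while an upstream region (position -7877) rose from 0.567, 0.434, 0.335 and 0.495 to 6.16, 5.82 and 3.15 CPM (3.46, SE 0.31). Itgav, part of the vitronectin receptors, had 55.4, 54.2, 50.2 and 74.0 against 42.6, 41.1 and 46.9 CPM at its first exon (-0.43, SE 0.12) and fell at 2 of its 3 intronic regions, by 1.74 and by 1.42 on the log2 scale. The region of Itga6 nearest its start had 15.7, 16.3, 17.5 and 19 against 14.2, 12.5 and 12.2 CPM (-0.40, SE 0.15). Itga1, a collagen receptor, overlapped between the groups at its promoter, with 11.2, 13.2, 11.9 and 20.8 against 20.2, 21 and 19.1 CPM (0.48, SE 0.18).

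Integrin β subunits had 22 regions at 9 genes, of which 7 rose (31.8%), 1 fell (4.55%) and 14 were not called. Of all listed regions 37% were higher and 20.4% lower. Itgb1, the β subunit shared by most laminin and collagen receptors, had a single region, in an intron near the 3′ end of the gene and 681 bases from the TSS of a short inner transcript, at 2.38, 2.12, 1.96 and 1.93 CPM in Control and 0.886, 0.872 and 1.58 CPM in Chd3/4Δβ. The groups did not overlap, but the log2 fold change of -0.97 (SE 0.30, adjusted p = 0.0102) stayed just inside the fold limit. It passed the limit with each other scaling (-1.17 to -1.28) and with the replicate block (-1.02). The same held without Chd3/4Δβ replicate 3 (-1.24) and when Control replicate 4 was left out (-1.01). Itgb2, the β subunit of leukocyte integrins, rose upstream of its start (position -3760) from 0.340, 0.109, 0.287 and 0.189 to 5.75, 5.13 and 4.22 CPM (4.47, SE 0.33) and fell at an intronic region (-1.14). Itgb7, another leukocyte subunit, rose at its only region (3.64, SE 0.38). Regions of the immune markers, 4 of 10 listed, summed to 52.8 to 58.6 CPM in Control and 41.0 to 47.5 CPM in Chd3/4Δβ, and 2 of their 5 regions rose and none fell. Most of the sum came from 1 intergenic Fcgr3 region, with a mean of 42.0 CPM in Control and 26.7 CPM in Chd3/4Δβ. The Lyz2 region went the other way, from a mean of 0.531 to 2.53 CPM. The other 6 immune markers were not listed, and the part of immune cells in the Itgb2 and Itgb7 gains was not tested. Itgb3 and Itgb5, which are among the partners of αv, rose at 1 of 3 and 2 of 5 regions, all with positive log2 fold changes. Itgb6 rose at 1 of 3 and Itgb8 at 0 of 3.

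Laminin chains had 26 regions at 10 genes, with 9 gains (34.6%), 3 losses (11.5%) and 14 not called, beside 37% and 20.4% of all listed regions. The majority of gains over losses was lost with RLE size factors (6 and 6) and turned with cyclic loess (2 and 6). Lama2, the α chain of muscle and nerve laminin, rose at 3 of 4 regions, and Lama4, an α chain of vascular basement membrane, rose at 2 of 3 (1 of 3 with TMM factors, 0 of 3 with cyclic loess). The Lama4 region nearest an annotated TSS, an intronic one well inside the gene, went from 0.681, 0.163, 0.669 and 0.495 to 1.79, 2.05 and 1.46 CPM (1.82, SE 0.35). Lamb1, a β chain of most basement membrane laminins, fell from 14, 17, 16.2 and 14 to 4.86, 6.31 and 9.28 CPM at an intronic region (-1.19, SE 0.19), a loss that came to -0.99 without Chd3/4Δβ replicate 1. Lamc3 fell upstream of its start (position -2257) from 2.50, 1.52, 2.01 and 1.46 to 0.659, 0.488 and 0.394 CPM (-1.79, SE 0.34). Lama5, Lamb2 and Lamc1, chains of laminins of vascular and other basement membranes, were under the fold limit at the region nearest an annotated TSS (for Lamc1 in its first intron), at 0.51, 0.65 and -0.60.

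Type IV and other network collagens had 14 regions at 6 genes, split into 4 gains and 4 losses (3 and 5 with RLE size factors, 1 and 4 with cyclic loess). Each made up 28.6% of the regions, beside 37% gains and 20.4% losses among all listed regions. Their median log2 fold change of 0.85 turned to -0.55 when only regions with at least 2 CPM in 3 libraries were fitted. Col4a1, a main chain of basement membrane collagen, was most open at a region deep inside the gene, 97908 bases from its 5′ end, with 61.1, 58.8, 60.6 and 56.6 CPM in Control and 47.8, 41.1 and 51.8 CPM in Chd3/4Δβ (-0.34, SE 0.11), and it fell at 1 intronic region (-1.19). Col4a2, its partner chain, rose at both of its regions, which are intronic, the one nearest an annotated TSS (an inner one, 129611 bases from the gene's 5′ end) from 0.794, 0.326, 0.335 and 0.542 to 2.98, 2.95 and 1.80 CPM (2.38, SE 0.34). The 2 losses assigned to Col10a1 lie within the gene Nt5dc1.

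Fibrillar collagens had 17 regions at 8 genes, with 9 gains (52.9%) and 4 losses (23.5%), beside 37% and 20.4% of all listed regions. With RLE size factors there were 7 gains and 5 losses, and with cyclic loess 7 and 4. All 3 regions of Col1a1, the main chain of type I collagen, rose, most near a transcript end inside the gene, from 1.02, 0.434, 0.956 and 0.801 to 9.11, 7.88 and 6.30 CPM (3.27, SE 0.26). Its upstream region (position -7210) rose from 4.76, 4.18, 4.35 and 3.06 to 19.6, 15.1 and 12.7 CPM (1.97, SE 0.19). Col1a2, the partner chain, rose at an inner transcript start from 2.50, 3.04, 2.68 and 3.28 to 10.6, 11.9 and 15.4 CPM, while the region at the gene's own start was at 0.99, under the limit. The 2 type I chains were therefore higher at 5 regions and lower at 1. In the other direction, the first exon of Col5a2, a type V chain, fell from 4.42, 3.31, 2.92 and 4.22 to 0.795, 0.539 and 0.338 CPM (-2.65, SE 0.31), the opposite of Col5a3.

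FACIT collagens, which sit on the surface of fibrils, had 31 regions at 8 genes. There were 16 gains (51.6%) and 4 losses (12.9%), beside 37% and 20.4% of all listed regions. With RLE size factors there were 16 gains and 6 losses, and with cyclic loess 13 and 5. An intronic region of Col14a1 rose from 0.0567, 0.109, 0.0478 and 0.0236 to 1.93, 1.85 and 1.74 CPM (5.06, SE 0.45), which rests on 1 or 2 reads in each Control library, and came to 0.70 when log2 CPM were scaled by cyclic loess. Col22a1 rose at 3 of 3 regions, Col19a1 at 3 of 5 and Col12a1 at its only region (1.95). Of the 10 regions assigned to Col9a1, a cartilage collagen, 4 rose and 2 fell, and 7 of the 10 lie within the neighbouring gene Col19a1. The largest of these losses went from 2.84, 3.58, 2.77 and 5.28 to 0.568, 0.564 and 0.563 CPM (-2.69, SE 0.32), 49697 bases before a gain that went from 1.25, 1.03, 1.10 and 1.11 to 10.7, 11.2 and 13.9 CPM (3.40, SE 0.21). Gains and losses thus lay side by side in the same stretch.

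The other collagens, mainly the collagen VI, transmembrane and multiplexin types, made up the largest family, with 65 regions at 14 genes. There were 39 gains (60%) and 9 losses (13.8%), beside 37% and 20.4% of all listed regions. With RLE size factors there were 28 gains and 17 losses, and with cyclic loess 27 and 12. An intronic region of Col13a1, a transmembrane collagen of cell adhesions, rose from 0.284, 0.217, 0.191 and 0.330 to 8.52, 7.90 and 7.99 CPM (4.91, SE 0.27, adjusted p = 5.16e-12). Col18a1, the basement membrane collagen that is the source of endostatin, rose at 8 of 9 regions and fell at 1 (-1.36). Col25a1 rose at 6 of 6 regions (3 of 6 with RLE size factors) and Col6a3 at 3 of 5. Col6a6 went the other way, with 7 of 7 negative log2 fold changes and 1 call, an intronic fall from 1.87, 1.52, 1.67 and 2.05 to 0.545, 0.539 and 0.169 CPM (-1.97, SE 0.35). Col6a5, next to Col6a6 on chromosome 9, rose at 2 of 2 regions. On chromosome 10, the members Col6a2, Col6a1, Col18a1 and Itgb2 held 15 regions over 0.932 megabases, of which 11 rose and 2 fell. Of these 15, 9 were assigned to Col18a1, and regions of other genes in the stretch were not counted. Regions assigned to Col26a1 held a gain of 2.91 inside the gene and a change of -2.60 on the log2 scale between genes, 42194 bases apart.

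**Figure D3:**
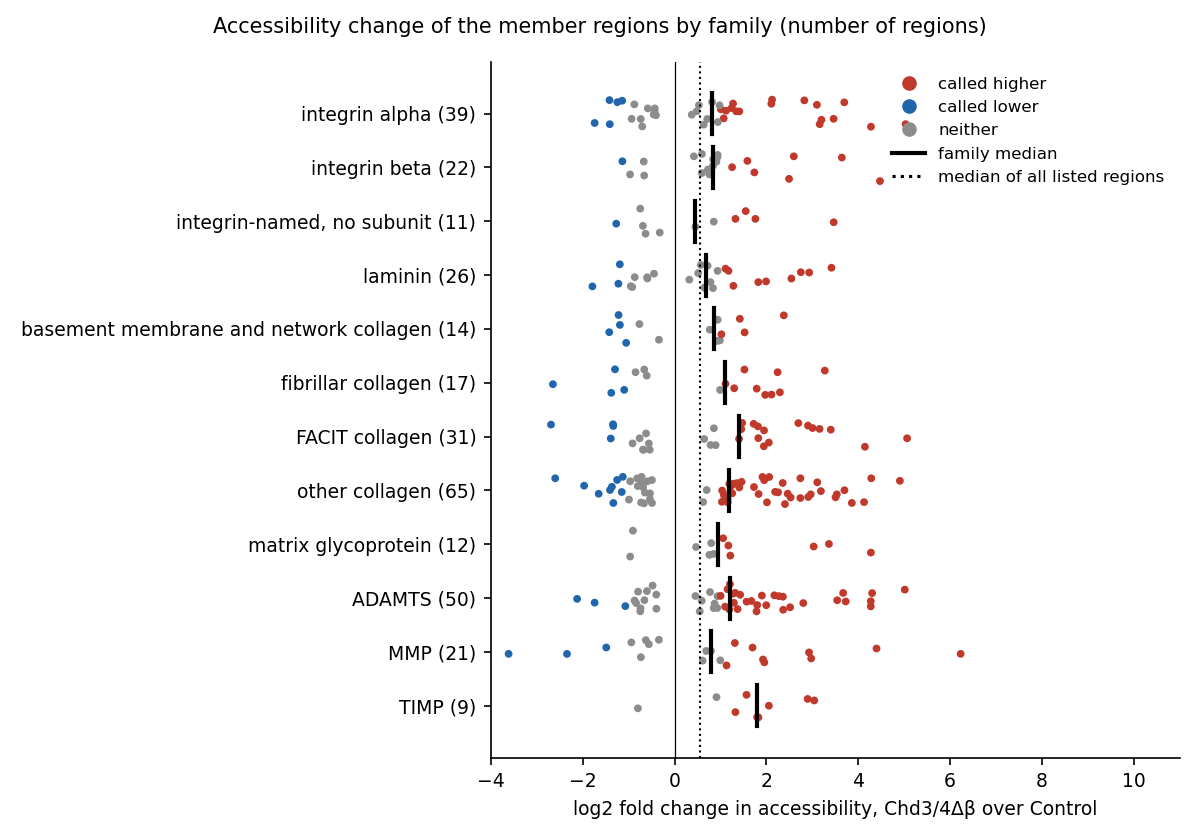
Log2 fold change (Chd3/4Δβ over Control) of each of the 317 member regions by family, with red points called higher, blue called lower and grey neither, black bars for family medians and a dotted line for the median of all listed regions. Family medians run from 0.45 to 1.80, and all but that of the integrin-named genes without a subunit lie above the 0.56 of all listed regions. The share called higher was under the 37% of all listed regions for integrin β (31.8%), laminins (34.6%), network collagens (28.6%) and the integrin-named genes (36.4%). In every other family it was above 37%.

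Among the matrix glycoproteins, 12 regions at 5 genes gave 6 gains (50%) and no loss in edgeR, beside 37% and 20.4% of all listed regions. In edgeR 2 of the 12 had a negative log2 fold change and an unadjusted p under 0.05. DESeq2 gave 3 gains and 2 losses. Fn1, which codes for fibronectin, rose at 3 of 4 regions (1 of 4 with each other scaling), most near a transcript end inside the gene, from 0.284, 0.0543, 0.335 and 0.189 to 3.29, 3.49 and 6.02 CPM (4.28, SE 0.38). Fbn2, a fibrillin of developing microfibrils, rose at 2 of 4 regions, the larger gain from 0.454, 0.597, 0.669 and 0.801 to 4.25, 4.85 and 7.20 CPM (3.03, SE 0.28). The single region of Fbn1, the fibrillin of adult tissue, overlapped between the groups and had a log2 fold change of -0.97.

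ADAMTS proteases had 50 regions at 15 genes, with 29 gains (58%) and 3 losses (6%), beside 37% and 20.4% of all listed regions. With RLE size factors there were 22 gains and 8 losses, and with cyclic loess 18 and 4. Adamts20, a protease of the versican-cutting group, rose at 9 of 10 regions (5 of 10 with cyclic loess), the largest gain from 0.227, 0.217, 0.0956 and 0.165 to 3.91, 2.82 and 3.71 CPM (4.30, SE 0.36). The exonic region 176 bases from its start rose from 2.78, 5.21, 3.01 and 3.96 to 19.9, 20.6 and 13.7 CPM (2.27, SE 0.21). Adamts5, an aggrecan-cutting protease, rose in an intron from 0.227, 0.271, 0.430 and 0.306 to 9.56, 10.3 and 10.8 CPM (5.01, SE 0.26, adjusted p = 2.01e-12). Adamts15 rose at 5 of 5 regions (3 of 5 with TMM factors). The losses fell on genes that also held gains or uncalled regions. A region assigned to Adamts9 that lies upstream of the gene went from 7.83, 6.29, 7.08 and 7.42 to 0.863, 1.59 and 2.81 CPM (-2.12, SE 0.28). An intronic region of Adamts6 went from 6.18, 6.73, 4.69 and 4.31 to 0.795, 1.39 and 3.09 CPM (-1.74, SE 0.33), and one of Adamts12 fell by 1.07 on the log2 scale. At each of these 3, Chd3/4Δβ replicate 3 was the mutant library nearest to Control.

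MMPs had 21 regions at 11 genes, with 9 gains (42.9%) and 3 losses (14.3%), beside 37% and 20.4% of all listed regions. With RLE size factors there were 7 gains and 5 losses. The family held both extremes of the whole group. The region with the largest gain, upstream of Mmp25 (position -6947), a membrane-anchored protease of leukocytes, had 0.227, 0.0543, 0.0956 and 0.0236 CPM in Control, from 4, 1, 2 and 1 reads, and 7.20, 8.01 and 4.11 CPM in Chd3/4Δβ, from 317, 312 and 73 reads (6.23, SE 0.42, adjusted p = 8.37e-11). It lies within the neighbouring gene Bicdl2. Mmp17, another membrane-anchored MMP, rose at an intron from 0.0567, 0.217, 0.191 and 0.212 to 4.41, 3.10 and 4.05 CPM (4.40, SE 0.36), and Mmp14, the main membrane-bound collagenase, rose at 2 of 2 introns (2.98 and 2.93). Mmp12, the macrophage elastase, fell upstream of its start (position -1242) from 2.16, 3.04, 2.20 and 1.72 to 0.409, 0.257 and 0.788 CPM (-2.34, SE 0.38). A region far upstream of Mmp16, named here after its values were seen, had the largest loss of any member, from 1.25, 1.25, 1.05 and 1.06 to 0.0227, 0.180 and 0.0563 CPM (-3.61, SE 0.47).

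TIMPs had 9 regions at 3 genes, with 7 gains (77.8%) and no loss in edgeR, beside 37% and 20.4% of all listed regions. In edgeR 1 of the 9 had a negative log2 fold change and an unadjusted p under 0.05. DESeq2 gave 7 gains and 1 loss. Timp2, an inhibitor that also takes part in MMP2 activation, rose at 4 of 4 regions, most in an intron from 0.397, 0.217, 0.478 and 0.141 to 2.88, 2.49 and 1.63 CPM (3.04, SE 0.39). Timp3 rose at 3 of 4 regions. The only Timp1 region lay within Syn1 and overlapped between the groups (-0.80). Gains were thus seen at MMP proteases and at their inhibitors.

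Of the 75 genes with at least 2 listed regions, 28 had only positive log2 fold changes (37.3%, beside 24.9% of all such named genes), 7 only negative (9.33%, beside 16.5%) and 40 both signs (53.3%, beside 58.5%). By calls, 56 of the 104 genes had gains only (53.8%, beside 39.4% of all named genes), 12 losses only (11.5%, beside 18.8%), 16 both (15.4%, beside 15.3%) and 20 neither (19.2%, beside 26.5%). Mixed directions within a gene were thus about as frequent at members as elsewhere. Over all members, 222 regions lie within the RefSeq span of their gene, 71 between genes and 24 within another protein-coding gene only, and these last include 9 of the 10 regions assigned to Itgb1bp1, which lie within Asap2. Itgb1bp1 codes for a cytoplasmic partner of the β1 tail and not for a subunit. Its largest gain went from 0.284, 0.380, 0.143 and 0.118 to 2.04, 2.90 and 2.08 CPM (3.47, SE 0.39), while the region at its own start had 57.1, 58.0, 54.3 and 67.4 against 49.1, 44.5 and 48.6 CPM (-0.32, SE 0.11).

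**Figure D4:**
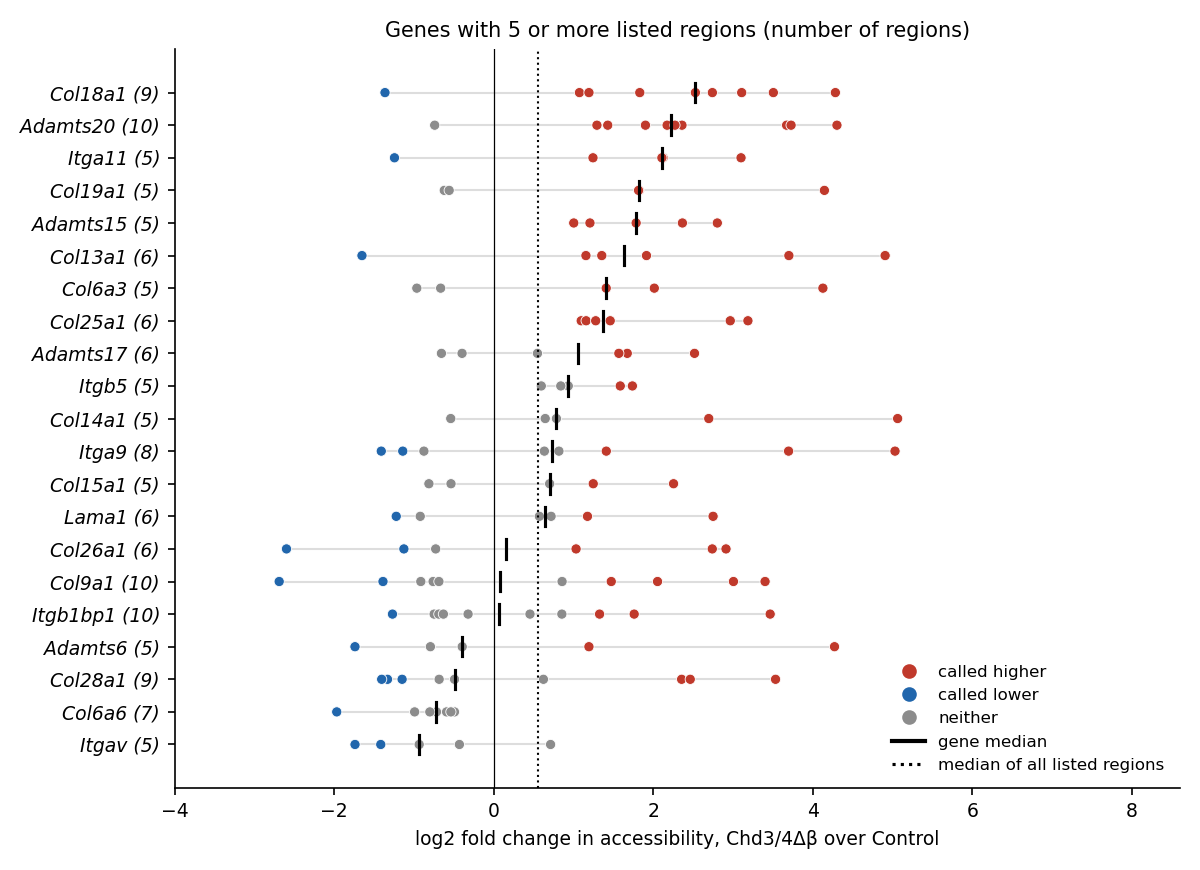
Log2 fold change (Chd3/4Δβ over Control) of every listed region of the 21 member genes with 5 or more regions, ordered by gene median (black bar), with red points called higher, blue called lower and grey neither. Col18a1 has the highest gene median, 2.53, and Itgav the lowest, -0.94, and the regions of Adamts15 and Col25a1 are all called higher, which held for 3 or 4 of their regions with the other scalings.

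By distance, of 54 members within 1000 bases of a TSS, 21 (38.9%) rose and 2 (3.70%) fell, beside 22.5% and 10.2% of all listed regions at that distance. Between 10000 and 100000 bases, 71 of 126 (56.3%) rose and 15 (11.9%) fell, beside 40.6% and 21.9%. Introns held 184 members, with 84 gains (45.7%) and 27 losses (14.7%), beside 35.0% and 24% of all listed introns. Intergenic regions numbered 61, with 35 gains (57.4%) and 8 losses (13.1%), beside 46.9% and 18.5%.

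A list of 66 partner genes was counted in the same way: receptors outside the integrin family, linkers from integrins to actin, collagen-modifying enzymes and other matrix proteins. Of these, 52 had listed regions, 202 in all, with 79 gains (39.1%), 30 losses (14.9%) and a median log2 fold change of 0.70, nearer to the 37%, 20.4% and 0.56 of all listed regions than the members were. Hspg2 (perlecan, a basement membrane proteoglycan) rose at 4 of 5 regions, and Nid2 (nidogen, which links laminin to collagen IV), Sparc (a collagen-binding protein) and Ddr2 (a collagen receptor kinase) rose at 2 of 2 each. Tns1, a linker of integrins to actin, rose at 7 of 9. Ptk2, which codes for focal adhesion kinase, fell at 3 of 3 regions, while its relative Ptk2b rose at 4 of 5. The enzymes P4ha1, P4ha2 and P4ha3, which hydroxylate collagen prolines, had 8 regions and no call, with 2 negative and 6 positive at an unadjusted p under 0.05.

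Regions at markers of endothelial, mesenchymal and other cell types were counted beside the 37% higher and 20.4% lower of all listed regions. Of 13 endothelial markers, 11 were listed, with 32 regions, of which 14 rose (43.8%) and 3 fell (9.38%). They summed to 134 to 139 CPM in Control and 207 to 263 CPM in Chd3/4Δβ. Of 12 mesenchymal markers, 11 were listed, with 17 regions, of which 11 rose (64.7%) and 1 fell (5.88%). They summed to 37.6 to 46.9 against 78.5 to 97.7 CPM. Pdgfra, a receptor of fibroblasts, had 12, 12.2, 11.7 and 12 CPM at its promoter in Control and 26.5, 28.4 and 19.1 CPM in Chd3/4Δβ (1.05). On other lists the share of gains was in some cases higher and in some lower than on the endothelial and mesenchymal lists. The δ-cell list (2 of 3 markers listed) had 7 gains (77.8%) and 1 loss in 9 regions. The α-cell list (6 of 6) had 7 gains (70%) and 1 loss in 10. The acinar list (2 of 6, Cela1 and Pnlip) had 4 gains in 4. The glial list (3 of 5) had 1 gain (33.3%) and no loss in 3 regions, and the immune list 2 gains (40%) and no loss in 5. The ductal list had 8 gains (42.1%) and 2 losses (10.5%) in 19 regions. Its sum overlapped between the groups, at 103 to 116 CPM in Control and 102 to 142 CPM in Chd3/4Δβ. No marker region listed was at 0 in any library. Endothelial Robo4 and Tie1 and mesenchymal Tcf21 were not listed. Neither were δ-cell Hhex, acinar Amy2a5, Cpa1, Ptf1a and Rbpjl, and glial Sox10 and S100b. The part of other cells in the member gains was not tested. In the deposited headers Control replicates 1 to 3 share a lane tag and Chd3/4Δβ replicate 3 has another. Control replicate 4 and Chd3/4Δβ replicates 1 and 2 have none. The split into tagged and untagged libraries is the same as that into shallower and deeper ones. With depth class as a term, 151 members were higher and 38 lower. Among the tagged libraries the tag differs with the group, so this term cannot adjust for the tag. Chd3/4Δβ replicate 1 was above every Control library at all 156 gains and replicate 2 at 154, and both were below every Control library at all 37 losses. These regions were called from the same libraries, and 70 of the gains passed the filter through Chd3/4Δβ libraries only. The counts are therefore no test of the split.

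**Figure D5:**
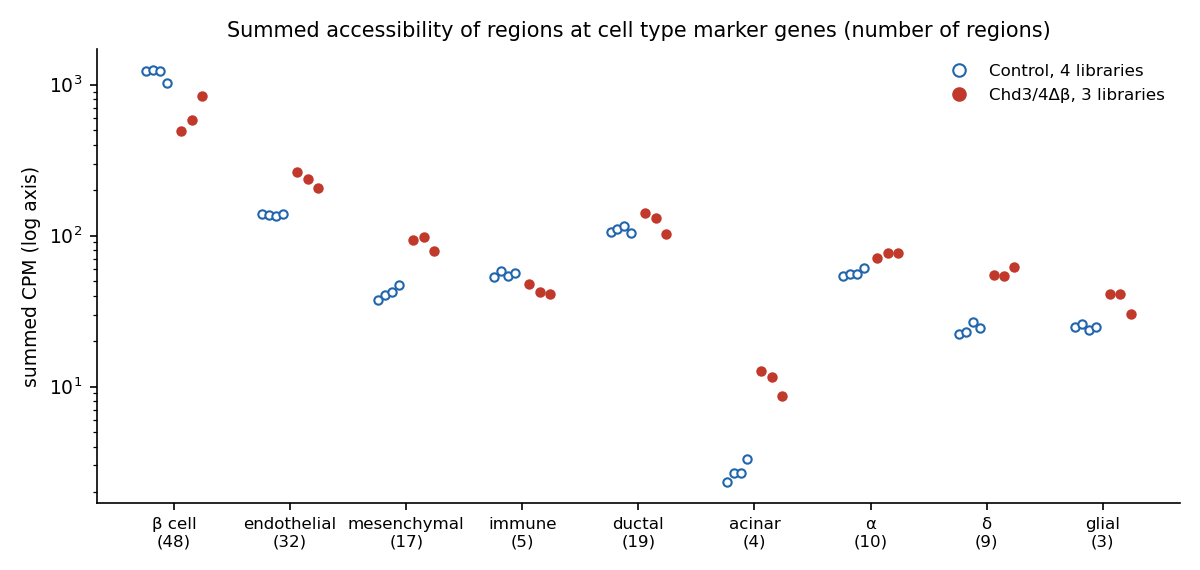
Summed CPM (log axis) over the listed regions of each cell type marker list in each library, with open points for the 4 Control and filled points for the 3 Chd3/4Δβ libraries. The β-cell sum is 1026 to 1253 CPM in Control and 490 to 838 CPM in Chd3/4Δβ, and the endothelial, mesenchymal, acinar, α, δ and glial sums are higher in every Chd3/4Δβ library than in any Control library.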

How the data were processed

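The members and gene lists were chosen with earlier results of these data known. The authors deposited 1 table of regions with whole-number read counts per region and library, and the same counts as CPM. The deposited p-value and FDR columns were used only to find that the authors tested 109675 regions. Long fragments were excluded when libraries were prepared. The aligner, peak caller, counting tool and Tn5 shift are not given in the sources used here. Whether replicates are separate animals is not stated either, and the p-values thus reflect only library-to-library spread, possibly technical. Library sizes ran from 17629713 to 44026681 counts, and the low Control values rest on few reads.

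The labels name GRCm39, but the centres of 68.2% of 5836 promoter regions lay within 2000 bases of the RefSeq GRCm38.p6 gene 5′ end, against 2.64% for the gene starts in the table, so coordinates are read as GRCm38 and none was converted. All 104 member symbols occur in the RefSeq gene table, and 73 have a RefSeq promoter window.

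Counts were tested in edgeR 4.0.16 (R 4.3.3; robust quasi-likelihood F-test, no block) with library sizes taken as deposited counts over deposited CPM, over all 61288 listed regions, and Benjamini-Hochberg adjustment over 109675. SE is an approximate standard error, the absolute log2 fold change over the square root of the F statistic. The test was run on simulated data with 200 changed regions, as many up as down, and a common dispersion. Far more regions were called in the data, so the simulation does not bear on the choice of scaling. TMM, RLE size factors, DESeq2 1.42.0, cyclic loess with limma 3.58.1 (log2 CPM, prior count 2), a likelihood ratio test, a filter at 2 CPM in 3 libraries, no fold limit, leaving out each library, a replicate block and depth class were alternatives. Regions named are the 8 largest gains and losses with a mean of at least 1 CPM and no overlap, 1 a gene; the largest call and the gene with most regions in each family; the region nearest an annotated TSS of Col4a1, Col4a2, Lama4, Lama5, Lamb1, Lamb2, Lamc1, Itga1, Itga3, Itga6, Itgav, Itgb1, Fn1, Timp3 and Col1a1; and every called promoter region. A result of 1 region named by this rule is not reported here. Other regions are given as further values of those families and were chosen after their values were seen. Partner genes and cell type markers were lists of symbols. The other deposited files were not used.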

Additional observations from a re-analysis of the deposited data

Results flagged for a closer look

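Among the 49 named regions, each with 4 Control libraries, 2 had a Control library that stood far from the other 3, about the 1 in 20 that chance gives. At the intronic Mmp17 gain, Control replicate 1 had 0.0567 CPM against 0.191 to 0.217 CPM in the others, a gap of 0.839 of the Control range, just over the Dixon limit for 4 samples. At the inner promoter of Col26a1, Control replicate 3 had 0.430 CPM against 0.163 to 0.170 CPM, a gap of 0.972 of the range. The Chd3/4Δβ libraries, at 3.10 to 4.41 and at 1.18 to 1.70 CPM, lay above every Control library in both cases.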

How the results depend on the processing

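The 156 member gains numbered 154 to 162 and the 37 losses 36 to 42 without each library in turn. Losses numbered 98 with no fold limit, 56 with TMM factors, 69 with RLE size factors, 70 in DESeq2 and 24 with the 2 CPM filter, which left 105 gains among 238 members. Partner genes, at 79 gains and 30 losses, had 122 and 72 with no fold limit, 50 gains with cyclic loess, and 55 losses with RLE size factors and in DESeq2. In all, 92 gains and 29 losses kept their call in every alternative that fitted them, and 11 members changed sign in at least 1. No named region changed sign. With cyclic loess the calls at Col14a1 (0.70), Col26a1 (0.17), Col27a1 (0.81) and Lama4 (0.44) were lost; the cause was not tested. Same-numbered libraries deviated from their group means with correlations of 0.07, -0.03 and -0.02, and differently numbered ones with -0.12 to 0.07. These values do not settle whether numbers pair libraries, and the labels do not say. With the replicate block 155 members were higher and 41 lower. Over all listed regions 22692 were higher and 12512 lower, but 17972 and 19441 with RLE size factors, and unlisted regions are not analysed here. The fold of gains with few reads in Control, such as that of Col14a1, is limited by counting.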
